A study of Mus musculus with 8 samples.

Results

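Transcripts of 10 enzymes and transporters of glucose production were measured in the liver of mice, in 4 pieces labelled tumour and 4 pieces labelled non-tumour. The members were taken by symbol from the 54838 genes of the count tables. Phosphoenolpyruvate carboxykinase (Pck1), glucose-6-phosphatase (G6pc), fructose-1,6-bisphosphatase (Fbp1), pyruvate carboxylase (Pcx) and the glucose-6-phosphate transporter (Slc37a4) make up the gluconeogenic steps. Serine dehydratase (Sds), liver glutaminase (Gls2), histidine ammonia-lyase (Hal), aspartate aminotransferase (Got1) and alanine aminotransferase (Gpt) make up the amino acid supply. All 10 members were found and all 10 passed the filter on low counts, out of 13650 genes tested. Both groups came from male, wild-type C57BL/6J mice that had been injected intraperitoneally on day 15 with the liver carcinogen diethylnitrosamine (DEN) and kept on a high-fat diet with SW, which the labels do not spell out. They give 30 weeks as the diet's length, as the interval after injection and as the time of culling, so the exact age is uncertain. Whether pieces came from separate mice is not given, so p-values measure only the spread between these samples, which may be technical. The feeding state at culling is not given in the sources used here.

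Gluconeogenesis builds glucose from lactate, glycerol and the carbon skeletons of amino acids, and the liver uses it to hold blood glucose during fasting. Pyruvate carboxylase and phosphoenolpyruvate carboxykinase bypass the irreversible pyruvate kinase step, fructose-1,6-bisphosphatase bypasses phosphofructokinase, and glucose-6-phosphatase, fed by its transporter, releases free glucose. In mouse liver, glucagon and glucocorticoids raise Pck1 and G6pc transcription, insulin represses it, and the pathway with its amino acid breakdown is strongest in the periportal part of the lobule.

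The upstream sequences of Pck1, G6pc and Hal are shown because Pck1 and G6pc, both under hormonal control, had unlike patterns across the libraries, and because Hal shared part of the Pck1 pattern. They are the 250 bases before the start that RefSeq lists (GRCm38.p6), 5′ to 3′ on the strand of the gene, and capitals mark motif matches. The RefSeq start of Pck1 lies 25 bases inside the annotated gene and that of G6pc 155 bases inside it.
Pck1 (chr2:173152823-173153072, plus strand): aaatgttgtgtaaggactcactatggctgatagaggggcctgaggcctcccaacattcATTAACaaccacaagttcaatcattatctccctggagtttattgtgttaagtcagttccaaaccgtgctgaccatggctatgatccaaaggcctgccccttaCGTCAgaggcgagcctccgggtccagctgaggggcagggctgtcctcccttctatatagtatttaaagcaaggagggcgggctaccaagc
G6pc (chr11:101367466-101367715, plus strand): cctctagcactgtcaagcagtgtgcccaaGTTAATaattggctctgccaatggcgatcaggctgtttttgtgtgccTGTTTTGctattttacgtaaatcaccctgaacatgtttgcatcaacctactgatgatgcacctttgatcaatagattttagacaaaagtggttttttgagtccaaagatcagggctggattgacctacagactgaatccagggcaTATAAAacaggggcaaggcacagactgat
Hal (chr10:93488518-93488767, plus strand): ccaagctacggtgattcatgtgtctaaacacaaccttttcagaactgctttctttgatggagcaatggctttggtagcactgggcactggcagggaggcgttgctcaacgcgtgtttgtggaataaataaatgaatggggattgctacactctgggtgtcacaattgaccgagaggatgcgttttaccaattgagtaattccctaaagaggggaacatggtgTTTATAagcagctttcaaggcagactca
The motifs searched on both strands were TGACG, the core of the cAMP response element, TGTTTTG, a forkhead and insulin response motif, GTTAAT, an HNF1 core, and TATAAA, the TATA box. In Pck1 the first of these stood in reverse (CGTCA) 90 to 86 bases before the start, and the HNF1 core in reverse (ATTAAC) 192 to 187 bases before it. G6pc held TGTTTTG 174 to 168, GTTAAT 221 to 216 and TATAAA 29 to 24 bases before the start, and Hal held the TATA box in reverse (TTTATA) 28 to 23 bases before it. No 2 matches overlapped. Promoter sequences matched 7 of the 10 members, all but Sds, Gls2 and Gpt. Among the others, Slc37a4 held TGACG 61 to 57 bases before the start, and Fbp1, Pcx and Got1 held none of the 4 motifs in this window. The start used for Slc37a4 lies 94 bases inside the annotated gene, so this match falls within that gene. Of 32851 promoters of this length, 17.8% held TGACG, 5.56% TGTTTTG, 6.43% GTTAAT and 12.4% TATAAA on either strand.

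The 8 libraries held 15446690 to 21977052 counts each and only 5 distinct expression profiles. Tumours 2 and 4 were near-identical, as were non-tumours 2, 3 and 4: the chi-square of their gene counts, divided by its degrees of freedom and about 1 for pure counting noise, was 1.58 to 3.28 in these 4 pairs and 71.7 to 165 in the other 24 pairs. Each such set was counted as 1 sample, which left 3 tumour profiles (1, 2/4 and 3) and 2 non-tumour profiles (1 and 2/3/4). Tumour 3 stood apart from its label's companions in the fetal liver gene Afp, with 1.42 CPM against 841, 429 and 431 CPM in tumours 1, 2 and 4. Non-tumour 1 stood apart in its summed Kupffer cell markers (7 genes), which reached 622 CPM, against 166 to 232 CPM in the tumour profiles and 184 CPM in non-tumour 2/3/4. Its endothelial markers (7 genes) summed to 305 CPM, against 133 to 179 CPM in the tumour profiles and 127 CPM in non-tumour 2/3/4. CPM are read counts relative to a library size scaled by TMM, the trimmed mean of M-values. All 10 hepatocyte markers passed the filter on low counts. Their sum, most of it Alb, was 189784, 150515 and 123172 CPM in tumours 1, 2/4 and 3, against 107494 and 120784 CPM in non-tumours 1 and 2/3/4. Of these markers 6 had positive and 4 negative log2 fold changes, with a median of 0.13, and Alb, Apoa1 and Trf were higher in every tumour library than in every non-tumour library. Lep of adipocytes and Ly6g of neutrophils had 0 reads in all libraries. In bulk tissue, fewer hepatocytes and less RNA per hepatocyte cannot be told apart.

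**Figure D1:**
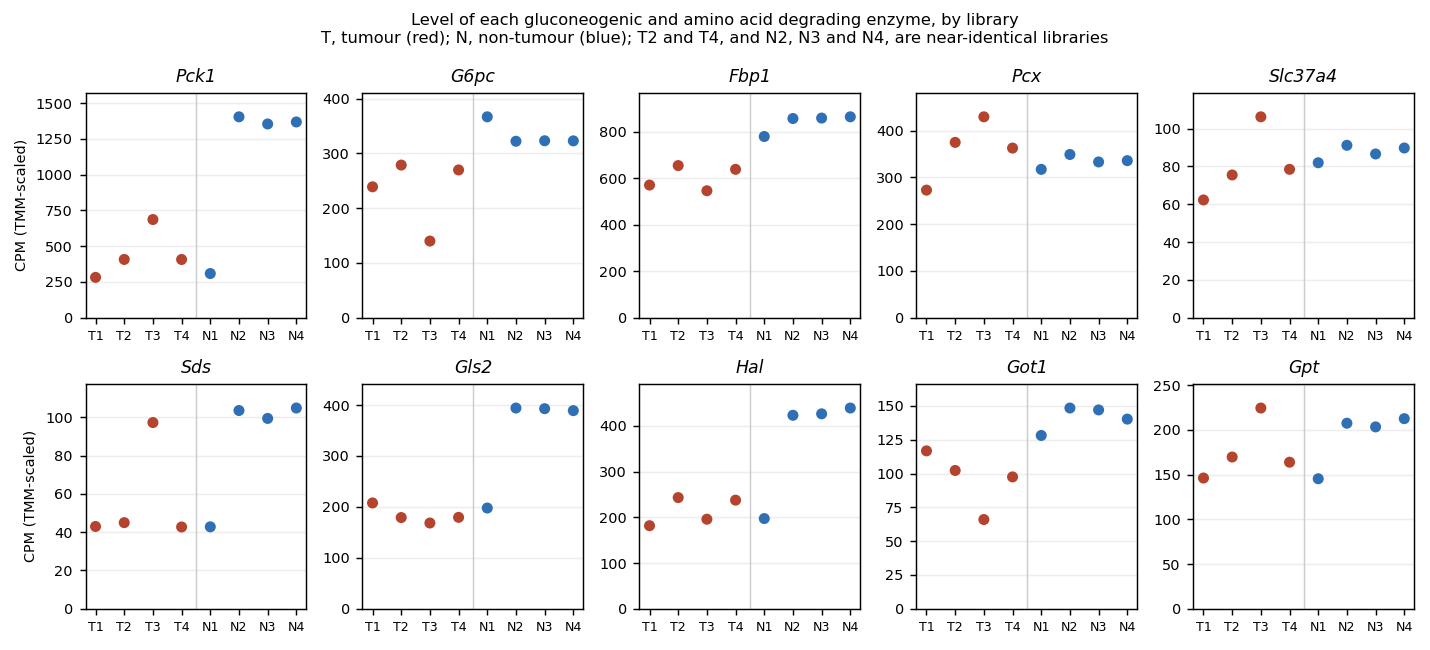
Level of each enzyme or transporter (CPM, linear axes from 0) in each of the 8 libraries, tumours in red on the left and non-tumours in blue on the right of each panel. G6pc, Fbp1 and Got1 were lower in every tumour than in every non-tumour, whereas Pck1, Sds, Gls2 and Hal in non-tumour 1 lay within the range of the tumours.

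Most of the 10 genes had lower mean levels in tumours than in non-tumour liver, but none passed the test across all genes. By edgeR's quasi-likelihood test on the 5 profiles, 0 of the 10 members had a Benjamini-Hochberg adjusted p under 0.05, where 0% of the 13650 genes tested did. The members' adjusted p-values lay between 0.995 and 0.999, and the smallest over all genes was 0.995. At an unadjusted p under 0.05, 0 members passed, where 451 genes (3.3%) did. On the same profiles, limma voom called 0 genes and DESeq2 called 2 (0.0147%), neither of them a member, and without tumour 3 edgeR called 5 genes (0.0357%) and 0 members. The log2 fold change was negative for 8 members and positive for 2, with a median of -0.50, where the median of all genes tested was 0.014 and 52.2% of them were positive. In 3 members, G6pc, Fbp1 and Got1, every tumour library lay below every non-tumour library, which held for 5.32% of genes tested. In 0 members did every tumour library lie above every non-tumour library, where 4.9% of genes did.

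Pck1 (chromosome 2, 173153048 to 173159273, GRCm38), which turns oxaloacetate into phosphoenolpyruvate in the cytosol, had the widest range of the members. It stood at 281, 406, 686 and 406 CPM in tumours 1 to 4, against 308, 1404, 1354 and 1368 CPM in non-tumours 1 to 4. The groups overlapped, because non-tumour 1 was below tumours 2, 3 and 4, while non-tumours 2, 3 and 4 were above every other library. The means were 458 ± 207 CPM in tumours (SD, n = 3 profiles) and 842 ± 755 CPM in non-tumours (n = 2), and the log2 fold change was -0.88 (SE 0.66, edgeR adjusted p = 0.995). Between the non-tumour profiles themselves the level in 2/3/4 was 4.47 times that in non-tumour 1, and tumour 3 had 2.0 times the mean of the other tumour profiles. Without profile 2/3/4 the log2 fold change of Pck1 was 0.61, without non-tumour 1 it was -1.60, and without tumour 3 it was -1.31.

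G6pc (chromosome 11, 101367561 to 101377903), the phosphatase that frees glucose in the endoplasmic reticulum, had its own pattern. Its levels were 239, 278, 139.7 and 269.6 CPM in tumours 1 to 4, against 367, 322, 323 and 323 CPM in non-tumours 1 to 4. The groups did not overlap, non-tumour 1 was the highest library and tumour 3 the lowest. Tumours averaged 217.5 ± 69.7 CPM (SD, n = 3) and non-tumours 344.5 ± 31.1 CPM (n = 2), with a log2 fold change of -0.66 (SE 0.30, edgeR adjusted p = 0.995). Tumour 3 had 0.545 times the mean of the other tumour profiles, and without it the log2 fold change was -0.43. Tumour 3 was thus above the other tumours in Pck1 and below them in G6pc, and non-tumour 1 below non-tumour 2/3/4 in Pck1 and above it in G6pc.

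Fbp1 (chromosome 13, 62864753 to 62888282), which removes a phosphate from fructose-1,6-bisphosphate, was the most even of the lower genes. It stood at 569.8, 654, 545 and 637 CPM in tumours 1 to 4, against 778.5, 856, 858 and 863 CPM in non-tumours 1 to 4. No tumour reached the lowest non-tumour, and both groups were tight. The means were 587 ± 52.2 CPM in tumours (SD, n = 3) and 819 ± 56.9 CPM in non-tumours (n = 2), with a log2 fold change of -0.47 (SE 0.22, edgeR adjusted p = 0.995). With each profile left out in turn, the fold change of Fbp1 stayed between -0.57 and -0.38. Per length and without the TMM factors (TPM, counts per base scaled to an equal total in every library), tumour 2/4 had 913 TPM of Fbp1, against 923 and 994 TPM in non-tumours 1 and 2/3/4.

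Pcx and Slc37a4, at the entry and the exit of the pathway, showed no separation of the groups. Pcx (chromosome 19, 4510472 to 4621752), the mitochondrial enzyme that makes oxaloacetate from pyruvate, stood at 273, 375, 429.7 and 363 CPM in tumours 1 to 4, against 317, 349, 333 and 336 CPM in non-tumours 1 to 4. Tumours thus spanned the whole non-tumour range of Pcx, and the log2 fold change was 0.13 (SE 0.26, edgeR adjusted p = 0.995). Slc37a4 (chromosome 9, 44396852 to 44402968), which carries glucose-6-phosphate to the phosphatase, stood at 62.3, 75.5, 106 and 78.5 CPM in tumours 1 to 4, against 82.0, 91.2, 86.6 and 89.8 CPM in non-tumours 1 to 4. Only tumour 3 was above the non-tumours in Slc37a4, and the other tumours were below all of them. Its log2 fold change was -0.05 (SE 0.27, edgeR adjusted p = 0.999), and -0.31 (SE 0.17) without tumour 3.

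Among the amino acid enzymes, Gls2, Hal and Sds were highest in non-tumour 2/3/4 and had non-tumour 1 near the tumours. Gls2 (chromosome 10, 128194457 to 128210004), which releases ammonia from glutamine and yields glutamate, stood at 208, 179, 168 and 179.5 CPM in tumours 1 to 4, against 198, 394, 393 and 389 CPM in non-tumours 1 to 4. Non-tumour 1 lay between tumour 1 and the other tumours. Tumours averaged 185 ± 20.4 CPM of Gls2 (SD, n = 3) and non-tumours 295 ± 137 CPM (n = 2), with a log2 fold change of -0.67 (SE 0.32, edgeR adjusted p = 0.995). Without profile 2/3/4 it was -0.07, and without non-tumour 1 it was -1.10.

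Hal (chromosome 10, 93488768 to 93519304), which starts histidine breakdown, stood at 182, 243, 196 and 238 CPM in tumours 1 to 4, against 197, 423, 426 and 439 CPM in non-tumours 1 to 4. Its log2 fold change was -0.61 (SE 0.36, edgeR adjusted p = 0.995), 0.09 without profile 2/3/4 and -1.08 without non-tumour 1. Sds (chromosome 5, 120476526 to 120483932), which turns serine into pyruvate, stood at 43.0, 45.0, 97.2 and 42.7 CPM in tumours 1 to 4, against 42.8, 103.5, 99.4 and 105 CPM in non-tumours 1 to 4. The libraries fell into low and high levels of Sds that crossed the labels: tumours 1, 2 and 4 and non-tumour 1 were low, and tumour 3 and non-tumours 2, 3 and 4 were high. The log2 fold change of Sds was -0.24 (SE 0.51, edgeR adjusted p = 0.995). Without profile 2/3/4 it was 0.55, without non-tumour 1 it was -0.75, and without tumour 3 it was -0.76.

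The aminotransferases differed from each other. Got1 (chromosome 19, 43499752 to 43524605), the cytosolic enzyme that interconverts aspartate and oxaloacetate, stood at 117, 102, 66.0 and 97.5 CPM in tumours 1 to 4, against 128, 148.5, 147 and 140.3 CPM in non-tumours 1 to 4. All tumours were below all non-tumours, with tumour 3 the lowest. Tumours averaged 94.2 ± 25.9 CPM (SD, n = 3) and non-tumours 137 ± 12.1 CPM (n = 2), with a log2 fold change of -0.53 (SE 0.26, edgeR adjusted p = 0.995), and -0.34 without tumour 3. Gpt (chromosome 15, 76695716 to 76699686), which turns alanine into pyruvate, stood at 146, 169.7, 224.5 and 164 CPM in tumours 1 to 4, against 145, 207.5, 203 and 213 CPM in non-tumours 1 to 4. The lowest library of Gpt was a non-tumour and the highest a tumour, and its log2 fold change was 0.03 (SE 0.29, edgeR adjusted p = 0.999).

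**Figure D2:**
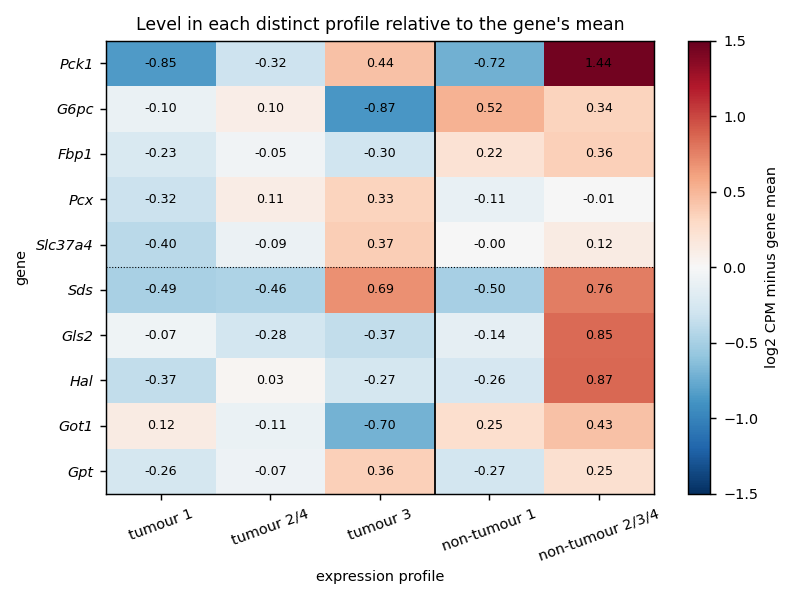
Level of each gene (log2 CPM minus the mean of that gene over the 5 profiles, colour and printed value) in the 3 tumour profiles, left of the line, and the 2 non-tumour profiles, right of it. Non-tumour 2/3/4 carried the highest value of Pck1, Fbp1, Sds, Gls2, Hal and Got1, and tumour 3 was low in G6pc and Got1 but high in Pck1 and Sds.

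Much of the members' spread lay within the groups. Of the 10 members, 6 were highest in non-tumour 2/3/4, which held for 16.6% of genes tested. Pck1, Sds and Hal were at least 2-fold higher in 2/3/4 than in non-tumour 1, which held for 1.98% of genes tested, and Gls2 was just short of this at 1.98-fold. In the other direction, 7.6% of genes were at least 2-fold lower in 2/3/4 than in non-tumour 1. Tumour 3 was the highest tumour profile for 5 members (Pck1, Pcx, Slc37a4, Sds and Gpt) and the lowest for 4 (G6pc, Fbp1, Gls2 and Got1), where 38% and 45.6% of genes were. The ratio of the highest to the lowest profile was 4.89 for Pck1, 2.62 for G6pc, between 2.2 and 2.4 for Sds, Hal, Gls2 and Got1, and between 1.54 and 1.71 for Fbp1, Pcx, Slc37a4 and Gpt. The Kupffer and endothelial marker sums moved with the difference between the non-tumour profiles, and their part in it was not tested.

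**Figure D3:**
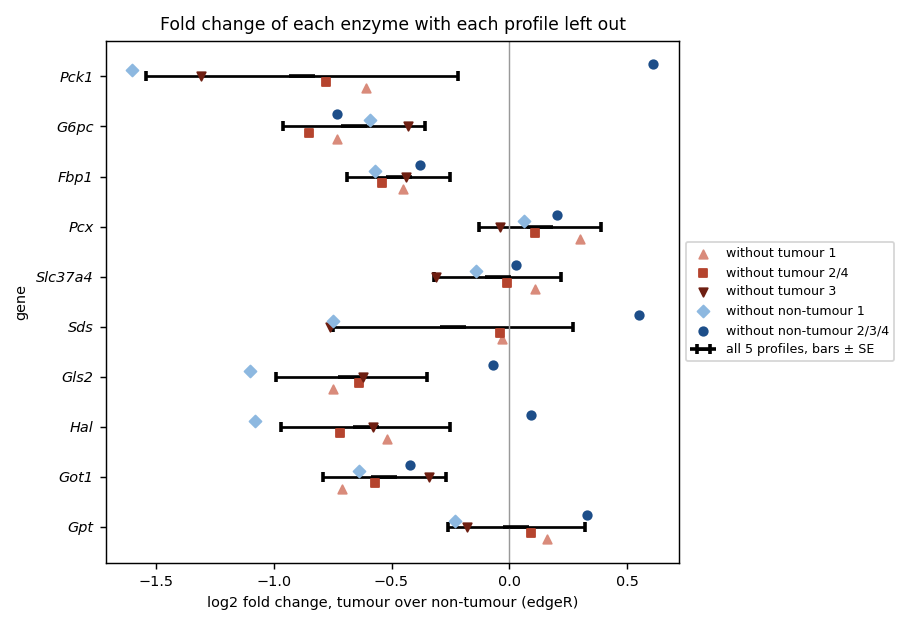
Log2 fold change of each gene, tumour over non-tumour, from edgeR on all 5 profiles (black tick, bars ± SE) and with each profile left out in turn (coloured symbols). G6pc, Fbp1 and Got1 stayed below 0 in all 5 leave-outs, as did Gls2. Without non-tumour 2/3/4, Pck1, Sds and Hal moved above 0, and Slc37a4 moved to 0.03.

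Which libraries were included set how many members separated the groups. Without non-tumour 1, every tumour was below every non-tumour for 7 members, G6pc, Fbp1, Got1, Pck1, Sds, Gls2 and Hal, where 12.8% of genes were. Without tumour 3 this held for 4 members, with Slc37a4 added, where 11.4% of genes were. Without tumour 1 it held for 4 members, with Gls2 added (6.95% of genes), and without tumours 2 and 4 for 4, with Hal added (11.3% of genes). Without non-tumours 2, 3 and 4 it held for 3 members, where 24.3% of genes were. A member was higher in every tumour than in every non-tumour in 2 of these leave-outs, Pcx without tumour 1 (7.48% of genes) and Gpt without non-tumours 2, 3 and 4 (19.2% of genes). On the TPM scale every tumour was below every non-tumour for Got1 alone, where 1.68% of genes were. With the 8 libraries taken as separate replicates, 0 members had an adjusted p under 0.05, where 0.435% of 12880 genes did. In that fit 6 members had an unadjusted p under 0.05, where 18% of genes did. The adjusted p-values of the members there lay between 0.0956 (Fbp1) and 0.779 (Gpt), from a test in which near-identical libraries count as replicates.

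Per length, the members covered a wide range of abundance. The mean over the 5 profiles was 815 TPM for Fbp1, 354 TPM for Pck1, 229.5 TPM for G6pc, 151 TPM for Pcx, 134 TPM for Gls2 and 122 TPM for Gpt. Hal had 91.5 TPM, Got1 89.9 TPM, Sds 76.8 TPM and Slc37a4 58.7 TPM. Fbp1 was the highest member in all 5 profiles, but its lead varied: its level over that of Pck1 was 4.08, 3.2 and 1.6 in tumours 1, 2/4 and 3, against 5.09 and 1.26 in non-tumours 1 and 2/3/4. Pck1 and G6pc changed places, with 169.7, 285 and 345 TPM of Pck1 in tumours 1, 2/4 and 3, against 181 and 790.1 TPM in non-tumours 1 and 2/3/4, and 205, 273 and 99.9 TPM of G6pc in tumours 1, 2/4 and 3, against 306 and 263 TPM in non-tumours 1 and 2/3/4. G6pc was thus above Pck1 in tumour 1 and non-tumour 1 and below it in the other profiles. Neighbours in the middle of the order, such as Pcx with 122 to 191.5 TPM and Gls2 with 83.7 to 222 TPM over the profiles, overlapped in range.

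The paralogs of the members were mostly minor forms in these livers. Pck2, the mitochondrial form of phosphoenolpyruvate carboxykinase, stood at 8.73, 5.1, 0.987 and 4.33 CPM in tumours 1 to 4, against 2.2, 1.45, 2.45 and 1.99 CPM in non-tumours 1 to 4. Tumours 1, 2 and 4 were above all non-tumours and tumour 3 below them, with a log2 fold change of 1.23 (SE 0.78, edgeR adjusted p = 0.995). Per length, Pck1 exceeded Pck2 73.3, 196 and 1580 times in tumours 1, 2/4 and 3, against 318 and 1600 times in non-tumours 1 and 2/3/4.

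Got2 and Gpt2, the mitochondrial aminotransferases, were abundant. Got2 averaged 248 ± 40.3 CPM in tumours (SD, n = 3 profiles) and 273 ± 6.95 CPM in non-tumours (n = 2), a log2 fold change of -0.13 (SE 0.23). Gpt2 averaged 311 ± 28.0 CPM in tumours and 289.6 ± 49.6 CPM in non-tumours, a log2 fold change of 0.11 (SE 0.22). G6pc3, the widely expressed glucose-6-phosphatase, averaged 5.2 ± 0.722 CPM in tumours and 4.41 ± 0.498 CPM in non-tumours, and Sdsl, the serine dehydratase-like gene, 5.38 ± 1.09 CPM in tumours and 6.4 ± 2.76 CPM in non-tumours. All 4 had an adjusted p of 0.995 by edgeR. Fbp2, the muscle form, reached at most 0.186 CPM and was not tested, and G6pc2, the pancreatic islet form, had 0 reads in all 8 libraries, which allows up to 0.136 to 0.204 CPM per library (3 counts, counting error only).

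The rest of the pathway was described by lists whose genes were all tested and of which 0 passed in the 5-profile fit (0% of all genes did). Of 22 reversible steps and carbon entry genes, 11 were higher in tumours and 11 lower by fold change, the median log2 fold being -0.03. Mpc1, a subunit of the mitochondrial pyruvate carrier, stood at 60.5, 72.2, 78.8 and 78.4 CPM in tumours 1 to 4, against 52.7, 50.6, 49.4 and 52.6 CPM in non-tumours 1 to 4. Every tumour exceeded every non-tumour, with a log2 fold change of 0.47 (SE 0.19, edgeR adjusted p = 0.995). Slc25a13, the mitochondrial aspartate-glutamate carrier, averaged 132 ± 19.6 CPM in tumours (SD, n = 3) and 173 ± 24.1 CPM in non-tumours (n = 2), without overlap (log2 fold change -0.38, SE 0.22). Pgam1, a phosphoglycerate mutase, averaged 16.6 ± 2.94 CPM in tumours and 20.6 ± 0.395 CPM in non-tumours, with overlap.

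**Figure D4:**
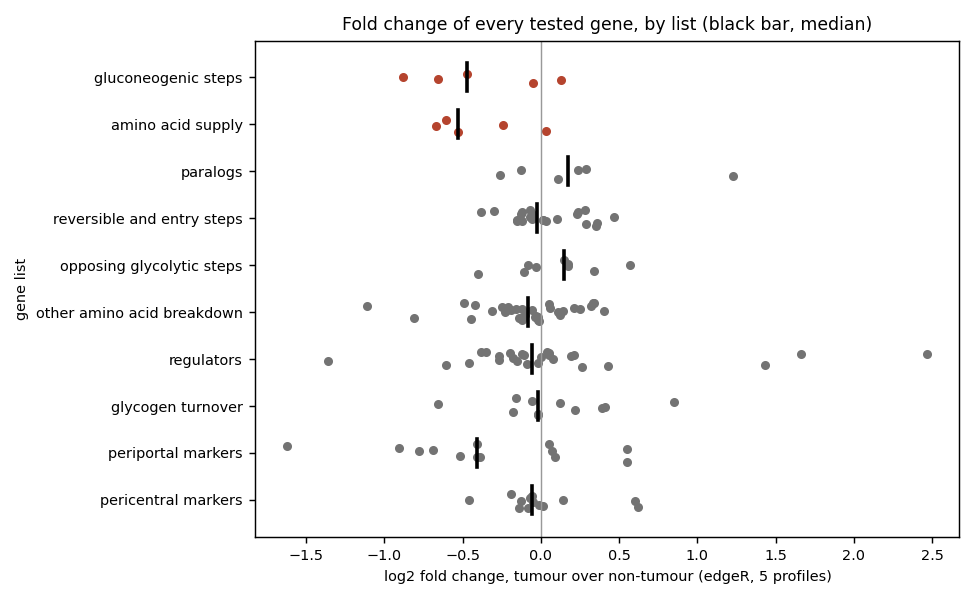
Log2 fold change of every tested gene, tumour over non-tumour, by list (points; black bar, median), from edgeR on the 5 profiles. The gluconeogenic steps and the amino acid supply genes, in red, had medians of -0.47 and -0.53, the periportal markers -0.41, and the other lists between -0.08 and 0.17.

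Of the 9 opposing glycolytic genes, 5 had positive and 4 negative fold changes around a median log2 fold of 0.15. Gckr, the regulatory protein of glucokinase, stood at 132, 127, 212 and 124 CPM in tumours 1 to 4, against 111, 103, 101 and 102 CPM in non-tumours 1 to 4. Its groups did not overlap, and the log2 fold change was 0.57 (SE 0.29, edgeR adjusted p = 0.995). Pklr, the liver pyruvate kinase that runs against Pcx and Pck1, stood at 213, 319, 320.4 and 304 CPM in tumours 1 to 4, against 352, 159, 159.6 and 150.3 CPM in non-tumours 1 to 4. Non-tumour 1 was the highest library for Pklr and the next-lowest for Pck1. The level of Pck1 over that of Pklr per length was 1.24, 1.2, 2.02 and 1.26 in tumours 1 to 4, against 0.826, 8.31, 8.0 and 8.59 in non-tumours 1 to 4. Pdk2, a kinase that inhibits pyruvate dehydrogenase, averaged 65.2 ± 13.9 CPM in tumours and 86.2 ± 14.7 CPM in non-tumours, and Pfkfb1, which sets the level of fructose-2,6-bisphosphate, 28.2 ± 2.88 CPM in tumours and 25.2 ± 3.69 CPM in non-tumours.

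Of 34 other amino acid breakdown genes, 11 had positive and 23 negative fold changes around a median log2 fold of -0.08. Cth, which cleaves cystathionine, stood at 174, 198, 194 and 210.4 CPM in tumours 1 to 4, against 214, 615, 608 and 604 CPM in non-tumours 1 to 4. The groups did not overlap, although non-tumour 1 was close to tumour 4, and the log2 fold change of Cth was -1.11 (SE 0.43, edgeR adjusted p = 0.995), -0.14 without profile 2/3/4. Tat, the glucocorticoid-inducible tyrosine aminotransferase, stood at 482, 462, 452 and 445.5 CPM in tumours 1 to 4, against 488, 1125, 1132 and 1134 CPM in non-tumours 1 to 4. The groups of Tat did not overlap either, but non-tumour 1 was again next to the tumours. The log2 fold change of Tat was -0.81 (SE 0.37, edgeR adjusted p = 0.995). Cbs, which makes cystathionine, averaged 326 ± 6.35 CPM in tumours and 459 ± 110.3 CPM in non-tumours, without overlap. Hpd, a dioxygenase of tyrosine breakdown, averaged 1134 ± 344 CPM in tumours and 1532 ± 312 CPM in non-tumours, with overlap.

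Hormonal and transcriptional regulators had no common direction, with 12 of 26 positive, 14 negative and a median log2 of -0.05. Trib3, a stress-induced pseudokinase that inhibits Akt, stood at 24.3, 31.0, 7.65 and 30.8 CPM in tumours 1 to 4, against 5.27, 9.16, 6.82 and 7.64 CPM in non-tumours 1 to 4. Tumours 1, 2 and 4 were above every non-tumour, tumour 3 was not, and the log2 fold change was 1.66 (SE 0.57, edgeR adjusted p = 0.995). Igfbp1, an insulin-repressed binding protein of insulin-like growth factors, stood at 629, 467, 3.83 and 467 CPM in tumours 1 to 4, against 96.9, 35.5, 36.4 and 35.8 CPM in non-tumours 1 to 4. Tumour 3 was below all non-tumours in Igfbp1 and the other tumours far above them, with a log2 fold change of 2.47 (SE 1.62, edgeR adjusted p = 0.995). Akt2, the insulin-signalling kinase, stood at 48.5, 48.0, 41.1 and 52.6 CPM in tumours 1 to 4, against 67.5, 60.8, 61.5 and 63.1 CPM in non-tumours 1 to 4. Akt2 was the single regulator of the 26 whose groups did not overlap in either direction. Among genes tested, 5.32% had every tumour below every non-tumour and a further 4.9% had every tumour above. The log2 fold change of Akt2 was -0.46 (SE 0.16, edgeR adjusted p = 0.995). Onecut1, a hepatocyte transcription factor, averaged 5.36 ± 2.92 CPM in tumours and 14.1 ± 12.8 CPM in non-tumours, and non-tumour 1 alone, at 23.2 CPM, was far above non-tumours 2, 3 and 4 (4.85 to 5.38 CPM).

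Other regulators, chosen after their values were seen and known to act on Pck1 or G6pc, overlapped between the groups. The log2 fold change was 0.21 for Gcgr, the glucagon receptor (SE 0.29), 0.19 for the coactivator Ppargc1a (SE 0.21), -0.27 for Foxo1, the insulin-inhibited forkhead factor (SE 0.17), -0.27 for Hnf4a (SE 0.23) and -0.09 for Crtc2, the CREB coactivator (SE 0.22). Klf15, a glucocorticoid-induced factor of amino acid breakdown, stood at 55.0, 71.5, 82.0 and 66.8 CPM in tumours 1 to 4, against 62.1, 117, 116 and 119 CPM in non-tumours 1 to 4. Non-tumour 1 was among the tumours for Klf15 too.

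**Figure D5:**
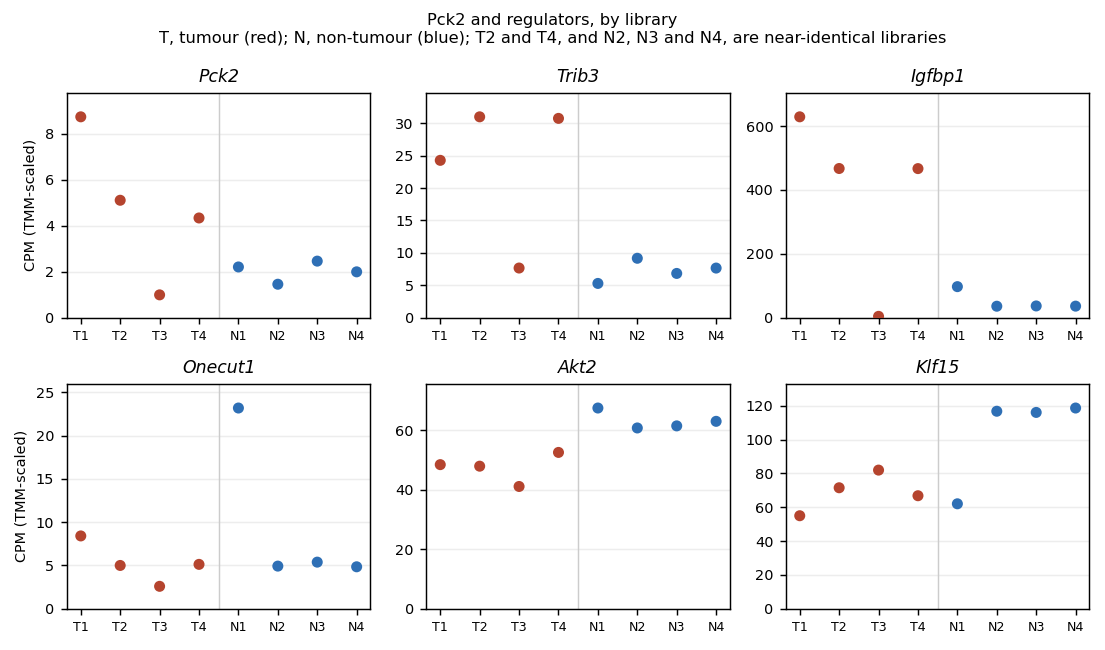
Level (CPM, linear axes from 0) of the paralog Pck2 and of the regulators Trib3, Igfbp1, Onecut1, Akt2 and Klf15 in each library, tumours in red on the left, non-tumours in blue on the right. Trib3 and Igfbp1 were high in tumours 1, 2 and 4 and low in tumour 3, and Akt2 was lower in every tumour than in every non-tumour.

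Glycogen genes, which take up or release the same glucose-6-phosphate, divided into 5 positive and 6 negative of 11, with a median log2 of -0.02. Ugp2, which makes UDP-glucose, averaged 454 ± 84.7 CPM in tumours (SD, n = 3) and 348 ± 17.0 CPM in non-tumours (n = 2), without overlap (log2 fold change 0.39, SE 0.24). Gys2, the liver glycogen synthase, averaged 136 ± 39.4 CPM in tumours and 103 ± 8.39 CPM in non-tumours, and Pgm2, a phosphoglucomutase family member, 7.18 ± 2.3 CPM in tumours and 4.06 ± 1.57 CPM in non-tumours.

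Periportal markers other than the members had 5 positive and 8 negative fold changes of 13, with a median log2 of -0.41. Ass1, the argininosuccinate synthase of the urea cycle, stood at 527, 593, 539 and 587 CPM in tumours 1 to 4, against 796.5, 1313, 1281 and 1270 CPM in non-tumours 1 to 4. Its groups did not overlap, and the log2 fold change was -0.91 (SE 0.28, edgeR adjusted p = 0.995). With the 8 libraries taken separately, Ass1 was the only periportal marker with an adjusted p under 0.05 (log2 fold change -1.05, adjusted p = 0.044 by edgeR). In that fit near-identical libraries count as replicates, and 0.435% of 12880 genes passed. Etnppl, a phospholyase of ethanolamine phosphate, averaged 47.2 ± 8.17 CPM in tumours and 145 ± 103 CPM in non-tumours (log2 fold change -1.62, SE 0.45), and Cyp2f2, a periportal cytochrome P450, 600.1 ± 134 CPM in tumours and 1040 ± 174 CPM in non-tumours (-0.78, SE 0.29). Neither overlapped between groups. Of the 13 periportal markers, 6 had every tumour library below every non-tumour library, as did 5.32% of genes tested. In 1, Hsd17b13 (log2 fold change 0.55, SE 0.24), every tumour library lay above every non-tumour library, as in 4.9% of genes tested. Arg1, the arginase of the urea cycle, averaged 768 ± 187 CPM in tumours and 1012 ± 443 CPM in non-tumours, with overlap. Of 13 pericentral markers, 4 had positive and 9 negative fold changes around a median log2 fold of -0.06. Cyp2e1, the ethanol-oxidising cytochrome P450, averaged 5890 ± 2812 CPM in tumours and 5988 ± 658 CPM in non-tumours, Lect2, a secreted chemotactic protein, 170.3 ± 82.2 CPM in tumours and 112 ± 13.5 CPM in non-tumours, Slc13a3, a dicarboxylate carrier, 30.1 ± 9.97 CPM in tumours and 20 ± 4.64 CPM in non-tumours, and Axin2, a Wnt feedback gene, 5.33 ± 1.09 CPM in tumours and 7.45 ± 3.58 CPM in non-tumours.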

How the data were processed

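RNA from snap-frozen liver was extracted with Trizol and a column and prepared with an Illumina mRNA library kit, per the labels' protocols. The deposited values are raw read counts per gene. They came from featureCounts 1.6.2 with the Ensembl release 95 exons and strand setting 2, per the file headers, with multi-mapping reads left out. STAR 2.5.0, Subread 1.6.2 and GRCm38 are named in the submitters' processing notes. Symbols from a table of the same build matched 54723 of 54838 gene IDs, and 203 IDs shared a symbol with another.

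The members and lists were chosen with earlier results of these data known. Libraries whose pairwise chi-square was under 10 per degree of freedom (over genes with at least 20 reads between them) were summed into 1 profile. The test of tumour against non-tumour was edgeR's quasi-likelihood F test (version 4.0.16, R 4.3.3; glmQLFit, glmQLFTest, TMM scaling, filterByExpr with a minimum count of 10 and a minimum total of 15), with Benjamini-Hochberg adjustment over all genes at 0.05. It was first tried on simulated data, in which the changes were larger than any member's fold change. That trial cannot show whether changes of the members' size would be found. Means ± SD run over profiles, a profile's level being the mean CPM of its libraries. A standard error was obtained as the log2 fold over the square root of F. Genes were named by rule: the members, their paralogs, and of each list the 3 genes with the lowest p and the most abundant per length, of which 2 genes are not reported here. Alternatives were library-size, median-of-ratios and upper-quartile scaling, other filters, DESeq2 1.42.0, limma 3.58.1 voom, the 8 libraries taken separately with or without a replicate block, and leaving out each library or profile. Same-numbered tumour and non-tumour libraries had deviations that correlated by 0.336, -0.119, 0.259 and -0.103. Near-identical libraries carry different numbers, so these correlations cannot decide whether the numbers mark pairs. The numbers were not taken as pairs. Levels between genes were compared as TPM, computed from the counts and exon lengths. Intervals and limits cover counting error only. Upstream sequences and starts are from RefSeq (GRCm38.p6).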

Additional observations from a re-analysis of the deposited data

How the results depend on the processing

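Over 29 alternatives the 10 members had 290 fold changes, of which 270 kept the direction reported and 20 reversed. Gpt made up 14 of the reversals. The alternatives are not independent: leaving out 1 library of a near-identical set kept the same 5 profiles. The number of genes past the threshold, 0 in the 5-profile fit, was 427 with no filter on low counts, 2 with DESeq2 and 56 with the 8 libraries taken separately. Leaving out 1 library or profile gave 0 to 1798 genes: 5 without tumour 3, and with separate libraries 65 without tumour 1, 766 without non-tumour 1 and 1798 without tumour 3. The cause was not tested. Members passed only in these separate-library fits, by edgeR. Without non-tumour 1, where 766 of about 13100 genes tested passed, they were Pck1 (-1.63, adjusted p = 0.0184), Fbp1 (-0.52, 0.0338), Gls2 (-1.10, 0.00204) and Hal (-1.01, 0.00565). Without tumour 3, where 1798 of about 13210 genes tested passed, they were G6pc (-0.36, 0.0377), Fbp1 (-0.45, 0.0226), Gls2 (-0.87, 0.0451) and Got1 (-0.43, 0.0265). Near-identical libraries counted as replicates there. The number of members with every tumour below every non-tumour was 3 to 7 over the leave-outs (7 without non-tumour 1, where 12.8% of all genes were so; 3 without non-tumours 2, 3 and 4, where 24.3% were) and 1 on the TPM scale (1.68%), alternatives chosen after seeing the data.

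The replicate block, fitted over the 8 libraries, called 0 genes (2264 with an unadjusted p under 0.05), against 56 without the block, and gave Gpt a log2 fold change of -0.12. The shared numbers are not known to mark pairs, and 4 of the 8 libraries correlated best with their own number.

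Log2 fold changes that reversed without profile 2/3/4 were Pck1 0.61 (lowest of its leave-outs -1.60), Sds 0.55 (-0.76), Hal 0.09 (-1.08), Slc37a4 0.03, Sdsl 0.3 (-0.65), Pklr -0.29 (highest 0.84), Arg1 0.17 (-0.80) and Cyp2e1 0.13. Without tumour 1 they were Slc37a4 0.11 (lowest -0.31), Got2 0.00 and Cyp2e1 0.3, without tumour 3 Pcx -0.04 and Gpt -0.18, and without tumour 2/4 Cyp2e1 0.01. Without non-tumour 1 they were Gpt -0.23 (highest 0.33), Gpt2 -0.08 (highest 0.31), Onecut1 0.07 (lowest -2.09) and Axin2 0.1 (lowest -0.88). Gpt was also -0.01 with no filter, -0.09 by voom and -0.12 with separate libraries, -0.28 to -0.04 with 1 of those left out (-0.24, -0.1, -0.09, -0.08 and -0.07 between). Separate libraries without non-tumour 1 gave Gpt2 -0.03, Pfkfb1 -0.01, Onecut1 0.07 and Axin2 0.15, without tumour 3 Pfkfb1 -0.02, and without tumour 1 Cyp2e1 0.14. Cyp2e1 was 0.01 with upper-quartile scaling and 0.00 with a mean of at least 1 CPM.

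With 3 and 2 distinct profiles, edgeR resolved no difference after adjustment, the smallest adjusted p over all genes being 0.995. This held also for fold changes larger than their standard errors. Depth was not limiting for the members, whose levels were far above the 3-count limit.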

Other observations

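Likeness to the members was measured as the root mean square difference of log2 CPM, each gene centred on its own mean, over the 5 profiles and 7133 genes. The mean of the 10 members relative to each gene's own mean was -0.30, -0.11 and -0.03 in tumours 1, 2/4 and 3, against -0.10 and 0.54 in non-tumours 1 and 2/3/4. The genes closest to that mean pattern were Hacl1, an enzyme of fatty acid alpha-oxidation (difference 0.048), Steap3, a ferrireductase (0.059), and Acadsb, an acyl-CoA dehydrogenase of isoleucine breakdown (0.065). Hacl1 stood at 18.0, 20.2 and 22.8 CPM in tumours 1, 2/4 and 3, against 21.1 and 34.9 CPM in non-tumours 1 and 2/3/4. The genes closest to Pck1, the member with the widest range, were Fam47e (0.189), the carboxylesterase Ces2a (0.24) and Nnmt, which methylates nicotinamide (0.242). Ces2a stood at 62.6, 72.6 and 142 CPM in tumours 1, 2/4 and 3, against 89.4 and 266 CPM in non-tumours 1 and 2/3/4. Among the members themselves, Pcx and Slc37a4 were the closest pair (0.123).

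Markers of other cell types also varied with the libraries, and their part in the members' levels was not tested. The cholangiocyte markers summed to 405, 196 and 22.3 CPM in tumours 1, 2/4 and 3, against 35.8 and 36.7 CPM in non-tumours 1 and 2/3/4. In tumours 1 and 2/4 most of this was Spp1 (205 and 101.5 CPM) and Tspan8 (189.8 and 86.5 CPM). Krt19 stood at 2.59, 0.248 and 0.37 CPM in tumours 1, 2/4 and 3, against 0.409 and 0.334 CPM in non-tumours 1 and 2/3/4. Epcam stood at 0.318, 0.671 and 0.247 CPM against 0.0512 and 0.546 CPM. Its value in non-tumour 1 was below the 3-count limit of that library, 0.154 CPM. Of the 8 markers 6 were tested, and all 6 had positive fold changes. The sum of 5 cycling genes was 36.1, 17.8 and 4.87 CPM in tumours 1, 2/4 and 3, against 10.3 and 14.5 CPM in non-tumours 1 and 2/3/4. Stellate cell and fibroblast markers (8 genes) lay between 205 and 245 CPM in tumours and 201 and 210 CPM in non-tumours.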
